A study of Mus musculus with 2 samples.

Results

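The nuclear genes of the oxidative phosphorylation complexes were described by how open their start sites were in mouse urinary bladder. Taken were all protein-coding genes of GENCODE release M21 on nuclear chromosomes whose symbol begins with Nduf (complex I), Sdha to Sdhd (II), Uqcr (III), Cox4 to Cox8 (IV) or Atp5 (V). The rule found 98 genes of 21938, under 97 symbols, because Atp5o has a pair of gene entries. Complex I had 46 of them, complex II 8, complex III 8, complex IV 18 and complex V 18. Of the 98, 84 encode subunits and 14 are assembly or accessory factors, which build or tune a complex without being counted among its subunits (Ndufaf and Sdhaf genes, Cox7a2l and Atp5s). Ndufa4 is kept in complex I by its symbol, although its protein is now placed in complex IV. Another 13 genes with these symbols are not protein coding and were left out.

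Oxidative phosphorylation is carried out by 5 protein complexes of the inner mitochondrial membrane. Complexes I to IV pass electrons from NADH and succinate to oxygen and, complex II apart, pump protons, and complex V uses the proton gradient to make ATP. Most of their subunits are encoded in the nucleus, on many chromosomes, and nearly every tissue makes them, but several subunits of complex IV, cytochrome c oxidase, exist in a broadly expressed form and in a form made mainly in heart and skeletal muscle, lung or testis. The nuclear respiratory factor NRF1, the ETS family factor GABP and YY1 are known regulators of these genes.

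Accessibility was read from DNase-seq of whole urinary bladder from male B6CASTF1/J mice aged 36 days; DNase I is a nuclease that cuts open chromatin. The animals are F1 hybrids of the strains C57BL/6J and CAST/EiJ, and reads were placed on mm10, which represents C57BL/6J alone. The design has 1 group of 2 libraries, labelled as biological replicates from separate animals, and no other condition, so genes were compared within each library and the libraries with each other. Bladder tissue mixes urothelium, smooth muscle, stroma and other cells, and fewer open cells cannot be told apart from less open chromatin per cell.

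For each gene the strongest peak within 500 bases of any annotated start was taken in each library, and is called its start peak. Its height is the authors' signal, deposited on a scale that the sources used here do not state. The height was therefore also ranked among the start peaks of the same library (19588 in replicate 1 and 20332 in replicate 2), which gives the start peak percentile, set to 0 where a gene had none. The absolute read depth is unknown. Genes are not replicates of each other, so shares and medians over genes are descriptions and no p-value was computed across them. Among marker genes, start peaks were called in both libraries for 9 of 10 of urothelium, 3 of 7 of smooth muscle, 1 of 10 of skeletal muscle and heart (Actn3) and 0 of 6 of testis. The smooth muscle genes Acta2, Cnn1, Tagln and Des had none in either library, but in the longer of the authors' pair of peak lists Acta2 and Des had one in both and Tagln in replicate 2, which makes 5 of 7 in both.

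The stretches below carry what the rest of the text describes. They come from RefSeq's GRCm38 patch 6 (GRCm38.p6) sequence, whose coordinates match mm10, and are written 5′ to 3′ on the strand of the gene. The first set shows members whose start peak held a footprint, a short protected stretch within the open site, over the letters bound by NRF1 (GCGC and TGCGC with any 1 base between them), which are in capitals. Footprints covered at least 1 base of each capital stretch in both libraries. Ndufaf4 is shown by the 200 bases before its RefSeq start (chr4:24897883-24898082, plus strand), and Cox6a1 (chr5:115348987-115349129, minus strand) and Ndufs5 (chr4:123718208-123718386, minus strand) by a stretch within the 200 bases before theirs. None of the 3 stretches overlaps an annotated exon. For Ndufa8 (chr2:36049349-36049378, minus strand), Ndufaf5 (chr2:140170652-140170681, plus strand) and Ndufa11 (chr17:56717692-56717721, plus strand), 30 bases around the letters are shown.
Ndufaf4: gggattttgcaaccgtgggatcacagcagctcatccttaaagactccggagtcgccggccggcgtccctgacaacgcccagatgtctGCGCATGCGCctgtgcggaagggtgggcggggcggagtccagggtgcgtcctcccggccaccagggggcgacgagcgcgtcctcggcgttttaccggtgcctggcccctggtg
Cox6a1: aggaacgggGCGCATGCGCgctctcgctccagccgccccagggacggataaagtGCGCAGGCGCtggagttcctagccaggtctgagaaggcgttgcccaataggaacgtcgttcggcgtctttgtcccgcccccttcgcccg
Ndufs5: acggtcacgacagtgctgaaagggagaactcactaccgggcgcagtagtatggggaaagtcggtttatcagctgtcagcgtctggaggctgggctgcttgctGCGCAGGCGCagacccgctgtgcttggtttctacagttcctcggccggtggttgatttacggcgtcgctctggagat
Ndufa8: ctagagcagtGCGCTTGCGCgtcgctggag
Ndufaf5: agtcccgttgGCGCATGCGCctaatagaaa
Ndufa11: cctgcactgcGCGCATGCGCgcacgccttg

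The second set shows the letters of the other regulators. Ndufaf8 (chr11:120098915-120098944, plus strand) holds the ETS letters CCGGAAG across its start. Ndufa7 (chr17:33824617-33824646, plus strand) and Atp5b (chr10:128083313-128083342, plus strand) hold the YY1 letters AANATGGCG, on the gene's strand in Ndufa7 and on the opposite strand in Atp5b, and in each the letters overlap the ATG at which translation begins. A footprint overlapped the capitals in both libraries at all 3 sites.
Ndufaf8: cgcgttcgactCCGGAAGaggcagggccca
Ndufa7: gagcggaaggAATATGGCGtccgctactcg
Atp5b: acccggattcCGCCATGTTgagtcttgtgg

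The third set shows tissue-restricted subunits, each followed by its broadly expressed counterpart, with every CpG dinucleotide in capitals. CpG is rare in most of the mouse genome and frequent in promoters of broadly expressed genes. The muscle form Cox8b (chr7:140900447-140900646, minus strand) and Cox8a (chr19:7217617-7217816, minus strand) are shown by the 200 bases before their starts. The muscle form Cox7a1 (chr7:30183971-30184143, plus strand) and Cox7a2 (chr9:79759879-79760053, minus strand) are shown by 173 and 175 bases within the 200 before theirs.
Cox8b: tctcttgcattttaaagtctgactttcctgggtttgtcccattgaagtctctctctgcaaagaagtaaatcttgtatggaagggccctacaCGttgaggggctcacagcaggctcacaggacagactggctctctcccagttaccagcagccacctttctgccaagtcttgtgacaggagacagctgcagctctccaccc
Cox8a: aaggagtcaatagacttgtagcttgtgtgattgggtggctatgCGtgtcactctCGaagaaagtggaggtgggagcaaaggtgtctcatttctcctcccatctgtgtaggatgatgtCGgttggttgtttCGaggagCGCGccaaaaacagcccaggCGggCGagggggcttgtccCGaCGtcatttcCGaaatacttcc
Cox7a1: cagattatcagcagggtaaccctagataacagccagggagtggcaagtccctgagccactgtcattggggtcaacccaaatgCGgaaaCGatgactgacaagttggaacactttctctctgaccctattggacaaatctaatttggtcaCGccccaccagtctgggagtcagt
Cox7a2: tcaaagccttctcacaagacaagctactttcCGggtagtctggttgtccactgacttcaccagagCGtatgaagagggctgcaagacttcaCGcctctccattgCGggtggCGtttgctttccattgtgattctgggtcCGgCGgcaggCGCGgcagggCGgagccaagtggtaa
The Cox8b stretch holds 1 CpG dinucleotide and the Cox8a stretch 11. Cox7a1 has 3 and Cox7a2 has 10.

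The starts of oxidative phosphorylation genes were open in the bladder with few exceptions, and their peaks were of upper-middle height rather than among the highest. Both libraries had a start peak at 89 of 98 members (90.8%), against 56.3% of all nuclear protein-coding genes. Replicate 1 had one at 89 members and 57.8% of all genes, and replicate 2 at 90 members and 58.6% of all genes. The median start peak percentile of members was 76.9 in replicate 1 and 79.3 in replicate 2, against 30.7 and 34.6 over all protein-coding genes. Genes without a start peak enter these medians as 0, so the distance reflects presence as well as height. Among genes with a start peak the median signal was 3.62 and 3.73 in members, against 2.94 and 2.81 in all. A percentile of at least 50 in both libraries was reached by 78 members (79.6%) and by 40.1% of all genes. By library it was reached by 78 and 83 members, against 41.4% and 42.9% of all genes. At a percentile of at least 90 in both libraries the shares lay closer together, with 10 members (10.2%) and 8.06% of all genes. The highest member signal in replicate 1 was 6.86, while the highest of any protein-coding gene was 16.5.

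Members and all genes were also set side by side within classes of base composition, where the distance was smaller in the CpG-rich class and larger in the other. A promoter was called CpG-rich when its observed over expected CpG ratio, from 250 bases before to 50 after the principal start, was at least 0.6, and 70 of 98 members (71.4%) met this, against 46.8% of all protein-coding genes. Among CpG-rich genes, both libraries had a start peak at 69 of 70 members (98.6%) and at 88.4% of all such genes. The median percentiles in this class were 80.3 and 83.6 for members, and 70.3 and 71.1 for all CpG-rich genes. At a percentile of at least 90 in both libraries the order was reversed, with 9 of 70 members (12.9%) and 15.2% of all CpG-rich genes. Among the genes below the ratio, 20 of 28 members (71.4%) had a start peak in both libraries, against 28.04% of all. The median percentiles there were 46.9 and 60.3 for members, and 0 in both libraries for all. This lower class was not matched in composition, as the median CpG ratio in it was 0.408 for members and 0.235 for all. The larger distance there is therefore not one at equal composition.

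**Figure D1:**
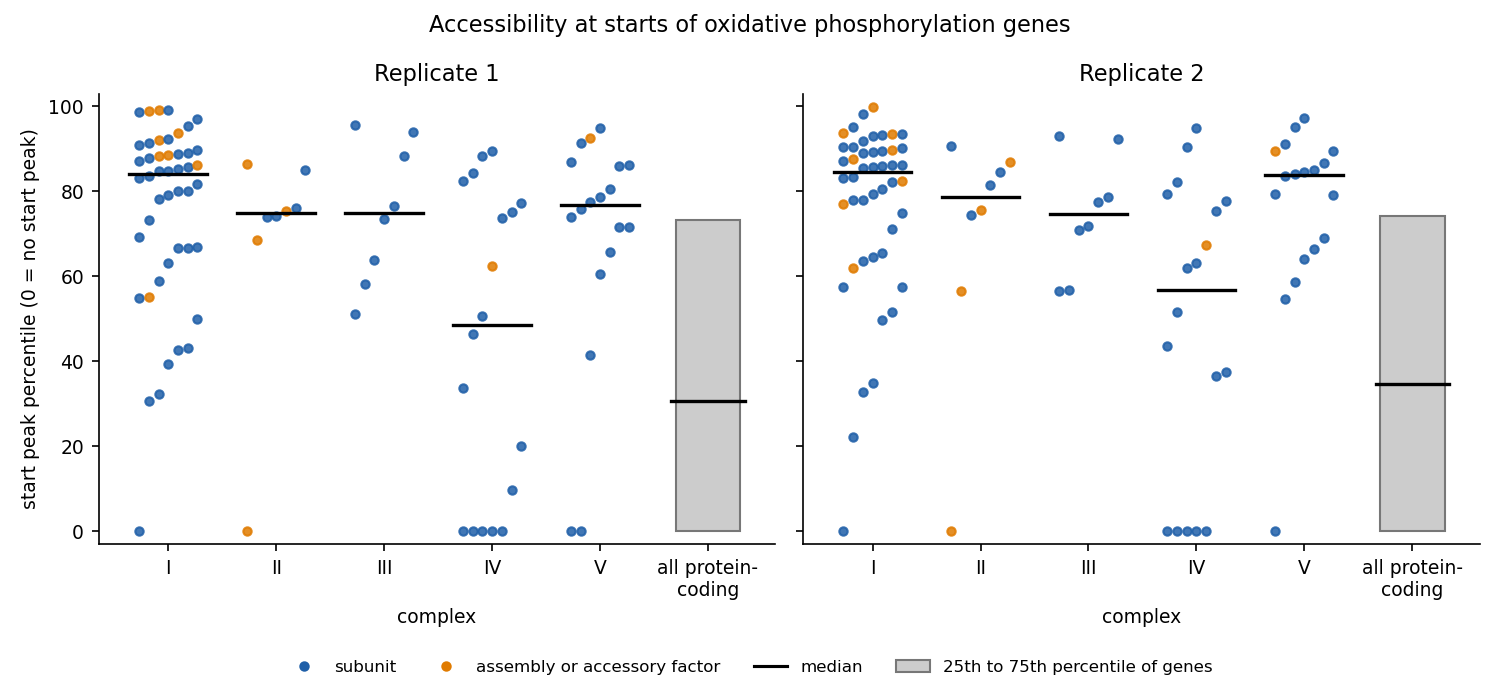
Start peak percentile (0 to 100, 0 where no start peak was called) of each member by complex, with replicate 1 on the left and replicate 2 on the right; blue points are subunits, orange points assembly or accessory factors, and black lines medians. The grey box spans the 25th to 75th percentile of all nuclear protein-coding genes. Complexes I, II, III and V have medians between 74.7 and 84.5, and complex IV, with 5 genes at 0, has medians of 48.5 and 56.8.

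Complex I, the NADH dehydrogenase that admits most electrons to the chain, had the highest median, by a narrow margin over complex V in replicate 2. This order counts its assembly factors. For subunits alone the medians were 80.9 in complex I and 75.9 in complex V in replicate 1. In replicate 2 they were 83.2 and 83.7, so that complex V was higher. Start peaks were called in both libraries for 45 of the 46 complex I genes, with median percentiles of 84.2 in replicate 1 and 84.5 in replicate 2. All 7 nuclear core subunits, which form the electron path of flavin and iron-sulphur clusters, had one, with medians of 80.1 and 85.6, close to those of the 31 accessory subunits (81.7 and 83.0). The strongest subunit was Ndufa7, an accessory subunit (ENSMUSG00000041881.13), whose peak on chromosome 17 spanned bases 33824441 to 33824660 in both libraries. Its signal was 6.86 in replicate 1 and 6.46 in replicate 2, a percentile of 98.7 ± 0.59 (SD, n = 2 libraries, as for each value with ± below). Ndufv3, a small subunit of the flavoprotein arm, had signals of 6.45 and 5.04 and a percentile of 95.9 ± 3.8. Ndufa8, an accessory subunit whose NRF1 letters are printed above, had signals of 5.35 and 5.11 and a percentile of 94.4 ± 1.2.

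At the other end, Ndufa13, an accessory subunit also known as GRIM-19, had signals of only 1.33 and 0.911 and a percentile of 26.5 ± 6.0. Its peaks in the libraries lay on either side of the start and did not overlap (bases 69902561 to 69902700 of chromosome 8 in replicate 1 and 69902181 to 69902520 in replicate 2). No footprint was called in either, although the promoter is CpG-rich, with a ratio of 1.19. Ndufa4l2, a paralogue of Ndufa4 known to be induced by hypoxia, was the single complex I gene without a start peak.

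The assembly factors of complex I stood higher still. Start peaks were called in both libraries for all 8 Ndufaf genes, with median percentiles of 90.3 and 88.6, against 80.9 and 83.2 for the 38 complex I subunits. The highest member of all was Ndufaf8 (ENSMUSG00000078572.3), an assembly factor that works with Ndufaf5. Its peak, at bases 120098681 to 120098940 of chromosome 11 in both libraries, had signals of 6.85 and 8.41 and a percentile of 99.4 ± 0.46. Ndufaf4 had signals of 6.64 and 4.53 and a percentile of 94.3 ± 6.5, and Ndufaf5 had signals of 5.07 and 5.16 and a percentile of 93.8 ± 0.017. Ndufaf1 was the lowest of the Ndufaf genes, with 2.23 and 2.36 (58.5 ± 4.8). Over all complexes, 13 of 14 assembly or accessory factors had a start peak in both libraries, with medians of 87.4 and 84.6, against 76 of 84 subunits with medians of 76.0 and 79.1. In complex II the order was reversed, with medians of 72.0 and 66.1 for its 4 assembly factors and 75.1 and 83.0 for its 4 subunits. Promoters were CpG-rich in 85.7% of the 14 factors and 69.0% of the 84 subunits, and this difference was not taken into account.

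Complex II, succinate dehydrogenase, is shared with the tricarboxylic acid cycle and is encoded entirely in the nucleus. Its 4 subunits all had a start peak in both libraries, with mean percentiles between 74.1 and 87.8. Sdhc, one of the pair of membrane anchors, had signals of 4.07 in replicate 1 and 4.65 in replicate 2 (percentile 87.8 ± 4.0), and Sdhd, the other anchor, had 3.30 and 3.98 (79.4 ± 7.3). Sdha, the flavoprotein, had 3.41 and 3.70 (78.7 ± 3.8), and Sdhb, the iron-sulphur protein, 3.28 and 3.17 (74.1 ± 0.38). The ranges of mean ± SD of Sdhc, Sdhd and Sdha overlapped their neighbours in this order, and that of Sdhb overlapped that of Sdhd. Among the assembly factors, Sdhaf3 had a signal of 4.21 in both libraries (percentile 86.6 ± 0.23), whereas Sdhaf1, known for inserting iron-sulphur clusters into Sdhb, had no start peak in either library.

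Complex III, which passes electrons from ubiquinol to cytochrome c, had a start peak at all 8 genes in both libraries, with median percentiles of 74.98 and 74.65. Uqcrfs1, the Rieske iron-sulphur protein, was highest, with signals of 5.41 and 4.91 and a percentile of 93.9 ± 2.3. Uqcrq, a small subunit, followed with 5.08 and 5.01 (93.4 ± 0.67), and Uqcrc1, a core subunit, with 4.36 and 3.47 (83.4 ± 6.9). Lowest were Uqcrb, a small subunit known from quinone binding, with 2.05 and 2.10 (53.9 ± 4.0), and Uqcrc2, the other core subunit, with 2.39 and 2.09 (57.4 ± 1.2). The pair of core proteins, which are present in equal amounts in the complex, thus differed in percentile by more than the SD of either.

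Complex V, the ATP synthase, had a start peak in both libraries at 16 of 18 entries, with median percentiles of 76.7 and 83.9. Atp5g2, of the rotor ring, was its highest gene, with signals of 5.28 and 4.71 (percentile 92.9 ± 2.7). Atp5b, the catalytic beta subunit, had 4.16 and 5.46 (90.5 ± 6.5), and Atp5mpl, a small membrane subunit, 4.705 and 4.02 (88.2 ± 4.6). The accessory factor Atp5s stood at a similar level, with 4.83 and 4.5 (90.9 ± 2.2). Atp5d, the delta subunit of the rotor stalk, was the only member with a start peak in 1 library. It had a signal of 4.19 in replicate 2 (percentile 86.6) at bases 80141341 to 80141600 of chromosome 10. In replicate 1 the longer of the authors' pair of peak lists held a start peak for it with a signal of 3.25, and the lowest deposited FDR at its starts was 0.00316 in replicate 1 and 3.8e-11 in replicate 2. The Atp5o entry without a start peak (ENSMUSG00000116933.1) is a long gene model with a single start at base 91926982 of chromosome 16. The other entry (ENSMUSG00000022956.11), for the subunit that confers oligomycin sensitivity, had signals of 2.79 and 2.63 and a percentile of 66.1 ± 0.48. Atp5l, a membrane subunit, was lowest of those with a start peak in both libraries, with 1.67 and 2.20 (50.1 ± 12.1).

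The c subunits form the rotating ring of complex V and come from Atp5g1, Atp5g2 and Atp5g3, which encode the same mature protein. All of them had a start peak in both libraries. Atp5g1 had signals of 3.50 in replicate 1 and 6.04 in replicate 2 and a percentile of 87.4 ± 14.1, a spread that covers the other two. Atp5g3 had 4.17 and 3.53 (82.7 ± 4.8). The strongest start peak of Atp5g2 was not at its principal start, that of the transcript APPRIS ranks first, but upstream of it at another annotated start, with its middle at -3341.5 and -3331.5 bases in replicates 1 and 2, where negative positions are upstream.

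Complex IV, cytochrome c oxidase, had the lowest share and medians, with a start peak in both libraries at 13 of 18 genes and median percentiles of 48.5 and 56.8. All 5 absences were tissue-restricted isoforms. Without its 7 tissue-restricted isoforms, the complex had a start peak in both libraries at 11 of 11 genes, with medians of 75.2 and 75.3, within the range of the other complexes. Cox6c, a small subunit, was highest, with signals of 4.36 and 5.40 and a percentile of 91.6 ± 4.7. Cox6a1 followed at 89.96 ± 0.81 and Cox5b, with 3.87 and 3.76, at 82.4 ± 0.17.

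Of 8 tissue-restricted isoforms, 2 had a start peak (25%), and of their 7 broadly expressed partners all 7 did, in both libraries. The share over all protein-coding genes was 56.3%. None of the 8 isoforms had a CpG-rich promoter. Among all genes below that CpG ratio the share was 28.04%, near that of the isoforms. Composition was not equal there either, with a median CpG ratio of 0.368 for the isoforms and 0.235 for all such genes. Of the 7 partners 6 had a CpG-rich promoter, and over all CpG-rich genes the share was 88.4%. No start peak was called in either library for Cox4i2, known from lung and from the response to low oxygen, for Cox6a2 and Cox8b of heart and skeletal muscle, for Cox7b2 and Cox8c of testis, or for Ndufa4l2. None appeared in the longer peak lists either. The nearest peak to a start lay 1934 bases away for Cox6a2 and 2895 for Cox8b in both libraries, 1887 and 1847 for Ndufa4l2, 11487 for Cox4i2, 20636 and 13296 for Cox8c, and 45858 and 45885 for Cox7b2. For Sdhaf1, which is no tissue isoform, a peak with signals of 4.12 and 4.48 lay 1335 bases from its start, outside the window.

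The pair of restricted isoforms with a start peak were Cox7a1 and Cox6b2. Cox7a1, the heart and skeletal muscle form, had signals of 2.03 and 2.43 and a percentile of 56.9 ± 8.8, against 3.27 and 3.42 and 75.7 ± 2.9 for its partner Cox7a2. Its peak covered the start (bases 30183981 to 30184240 of chromosome 7 in replicate 1 and 30184021 to 30184240 in replicate 2). Cox6b2, the testis form, had signals of 1.41 and 1.30 and a percentile of 35.5 ± 2.8, against 1.85 and 1.85 and 49.0 ± 3.8 for Cox6b1. In both pairs the restricted isoform was below its partner in both libraries.

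Among the partners of absent isoforms, Cox6a1 had signals of 4.48 and 4.63, Ndufa4 4.06 and 3.87 (percentile 84.1 ± 1.0) and Cox8a 4.002 and 3.53 (81.7 ± 3.5). Cox4i1 had 3.49 and 2.37 (69.6 ± 10.7). Cox7b was the exception, with signals of 0.805 and 1.27 and a percentile of 23.1 ± 18.8, the lowest of any member with a start peak in both libraries. Cox7a2l, which is related to Cox7a2 but joins complexes III and IV in supercomplexes, had 2.60 and 2.69 (64.8 ± 3.5).

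**Figure D2:**
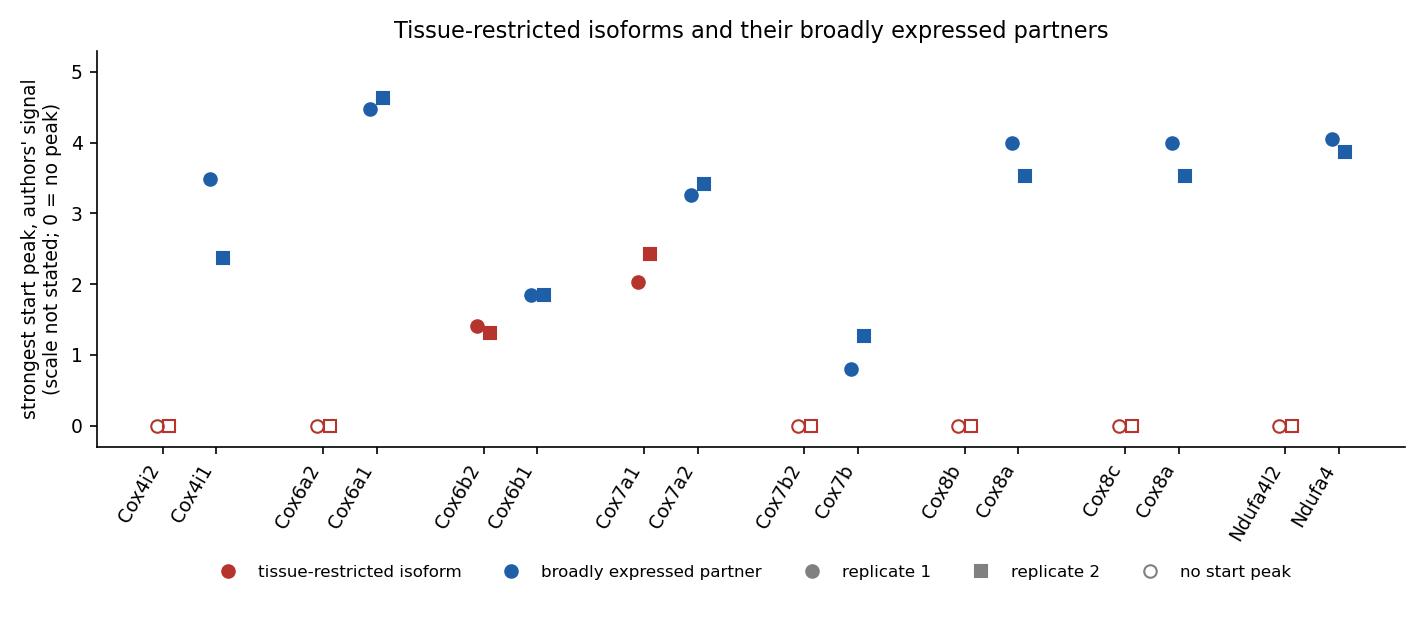
Height of the strongest start peak (the authors' signal, scale not stated) of each tissue-restricted isoform, in red, beside its broadly expressed partner, in blue, with circles for replicate 1 and squares for replicate 2; open symbols at 0 mark no start peak, and Cox8a is drawn beside each of Cox8b and Cox8c. Of the restricted isoforms Cox7a1 and Cox6b2 have a peak, and each lies below its partner in both libraries.

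The isoform classes also differed in base composition. None of the 8 restricted isoforms had a CpG-rich promoter and their median CpG ratio was 0.368, while 6 of 7 partners did, with a median of 0.833. The printed Cox8b and Cox8a stretches show the difference. Cox7b, the partner with the lowest peak, was also the one without a CpG-rich promoter, at 0.368. Start peaks in both libraries were called for 1 of 10 skeletal muscle and heart markers and 0 of 6 testis markers. The share was 56.3% over all protein-coding genes and 28.04% over those below the CpG ratio. The base composition of the markers was not compared. Start peaks were called for only 3 of 7 markers of smooth muscle (5 of 7 in the longer peak lists), and for the restricted isoforms Cox7a1 and Cox6b2. A link between the markers and the absent isoforms was not tested.

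Members on the X chromosome had low peaks. This grouping was made after the values were seen. The 3 X-linked members, Ndufa1, Ndufb11 and Cox7b, all had a start peak in both libraries, with signals of 1.59 and 1.85 for Ndufa1, 1.37 and 1.22 for Ndufb11 and 0.805 and 1.27 for Cox7b. Their median signal was 1.37 in replicate 1 and 1.27 in replicate 2, against 3.68 and 3.76 for autosomal members with a start peak. All protein-coding genes showed a difference in the same direction, with median signals of 1.49 and 1.48 on the X chromosome, against 3.004 and 2.88 on autosomes. Within CpG-rich genes the values were 1.70 and 1.73 on the X chromosome, against 3.32 and 3.24 on autosomes. Male cells carry a single X chromosome, and what that contributes was not tested. All 3 are among the 10 members with the lowest mean percentile of those with a start peak in both libraries, and the others of these 10, such as Ndufa13 and Cox7c, are autosomal.

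The libraries agreed closely for members. Of 89 members with a start peak in both, 86 had their strongest peak at an overlapping site. Spearman's rho between the signals of replicate 1 and replicate 2 was 0.880 across these 89 genes, against 0.953 across the 12341 protein-coding genes with a start peak in both, given as a description, since the genes share a library. The SD of the log2 ratio of replicate 2 to replicate 1 was 0.265 for members and 0.264 for all genes. Beyond Atp5d, the largest spreads were those of Cox7b, Cox7c (31.8 ± 16.7) and Atp5g1.

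**Figure D3:**
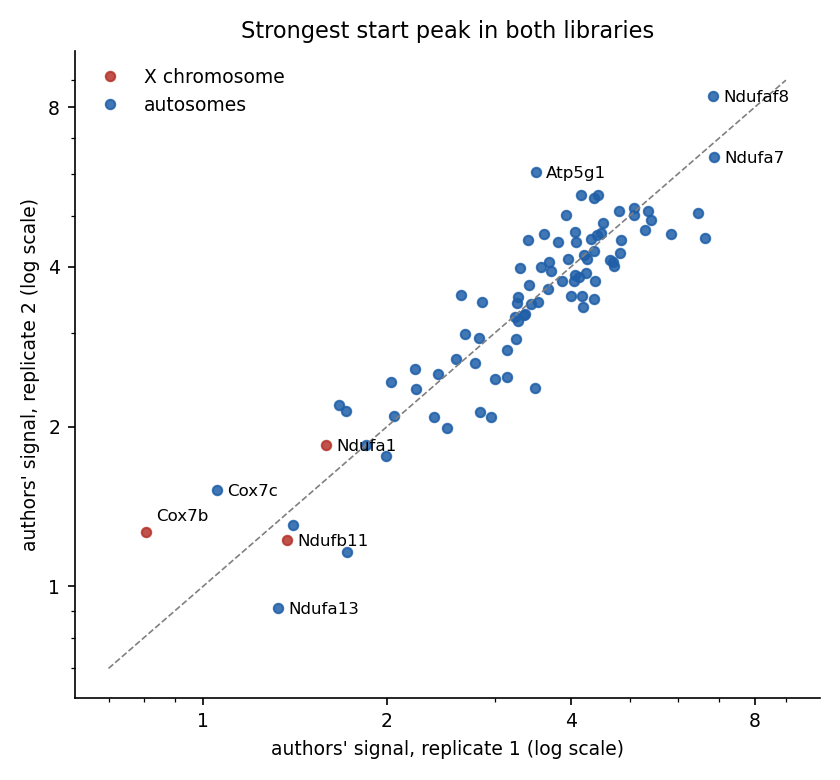
Signal of the strongest start peak in replicate 1 (x axis) and replicate 2 (y axis) for the 89 members with one in both libraries, on log scales, with X-linked genes in red, autosomal genes in blue and a dashed line of equal signal. The 3 X-linked genes have signals between 0.805 and 1.85, and most autosomal members lie above 2.

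Start peaks of members were of ordinary width and held an ordinary number of footprints. The median width was 240 bases in replicate 1 and 250 in replicate 2, against 260 and 260 for all protein-coding genes. Peaks held a mean of 4.663 and 4.83 footprints in members, against 4.43 and 4.48 in all genes, or 1.80 and 1.79 per 100 bases against 1.57 and 1.61. At least 1 footprint was present in 98.9% of member peaks in each library and in 97.8% of all. Over all genes the mean number of footprints was higher in each higher band of 10 percentiles, and in the band from 80 to 90 members had means of 5.04 and 4.704, against 5.10 and 5.21 for all genes. The widest member peak was that of Atp5j, a stator subunit, with 1000 bases and 12 footprints in replicate 1 but 300 bases and 2 footprints in replicate 2. Ndufs7, a core subunit of complex I, had 540 bases in both, with 10 and 8 footprints.

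Member peaks sat on the annotated start more often than those of other genes. The strongest start peak covered the principal start at 74 of 89 members (83.1%) in replicate 1 and 72 of 90 (80%) in replicate 2, against 63.8% and 64.0% over all genes with a start peak. The median position of the peak middle was -13.5 and -16.5 bases from the principal start in members, and -26.5 and -32.5 bases in all genes. Atp5g2 and Atp5f1 in both libraries and Atp5d in replicate 2 were the members whose strongest peak lay over 500 bases from the principal start.

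Many members share their promoter with a gene read in the opposite direction. A start of another gene within 1000 bases upstream on the other strand was present at 34 of 98 members (34.7%), against 14% of all protein-coding genes. Among CpG-rich genes the shares were 45.7% for members and 24.6% for all. The distance to the partner's start ranged from 3 to 336 bases, with a median of 100. Partners that are protein coding were found for 29 members (29.6%), against 9.003% of all genes. Such starts were found at 8 of 14 assembly or accessory factors, at 18 of 46 genes of complex I, 5 of 8 of complex II, 5 of 8 of complex III, 2 of 18 of complex IV and 4 of 18 of complex V.

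The partners named here are examples, and the functions of partners were not counted. Ndufa7 starts 10 bases from Rps28, a ribosomal protein gene, Ndufs1 3 bases from Eef1b2, a translation elongation factor, and Sdhd 98 bases from Timm8b, a mitochondrial import factor. Ndufaf8 lies 197 bases from Tepsin, a gene of vesicle coats, and Ndufv3 138 bases from Wdr4, a tRNA methylation cofactor. All 34 divergent members had a start peak in both libraries, with median percentiles of 81.6 and 84.0, against 55 of 64 other members, with 74.5 and 77.3. Over all protein-coding genes the same contrast was wider, with a start peak at 87.8% of divergent genes (medians 75.01 and 76.2), against 51.1% of the others (10.2 and 15.2). Within CpG-rich members the medians were 84.1 and 84.6 for divergent and 79.7 and 82.6 for other promoters. Of the 10 members at a percentile of at least 90 in both libraries, 7 were divergent, and of the 1768 genes at that level 572 were. Since a shared peak is counted for both genes, it cannot be assigned to either.

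Letters bound by NRF1, ETS factors and YY1 were more frequent in member promoters than in promoters at large. The window from 250 bases before to 50 after the principal start was searched on both strands, and a site that matched on both counted once. The NRF1 letters, GCGC and TGCGC with 1 base between, were present in 16 of 98 member promoters (16.3%), against 6.14% of all promoters. The ETS letters CCGGAAG were present in 19 (19.4%), against 11.2%, and the YY1 letters AANATGGCG in 8 (8.16%), against 3.16%. By contrast, the SP1 letters GGGCGG, common in CpG-rich promoters, were found in 42 members (42.9%) and 45.4% of all promoters.

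In CpG-rich promoters alone, NRF1 letters were present in 21.4% of members and 12.4% of all, ETS letters in 25.7% and 19.6%, and YY1 letters in 10% and 5.78%. SP1 letters ran the other way, at 50% of CpG-rich members and 74.0% of all CpG-rich promoters. At least 1 of the NRF1, ETS and YY1 letters was found in 36 members (36.7%) and 18.4% of all promoters, and in 0 of 8 tissue-restricted isoforms. Such letters were more frequent in CpG-rich promoters, at 33.4%, than in all promoters, and none of the 8 isoforms is CpG-rich. The 0 of 8 therefore cannot be told apart from a difference in base composition. By complex, the letters were found in 5 of 8 promoters of complex II and 3 of 18 of complex IV. In complex II, 4 of 8 promoters held NRF1 letters, those of Sdha and Sdhd and of the assembly factors Sdhaf3 and Sdhaf4.

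**Figure D4:**
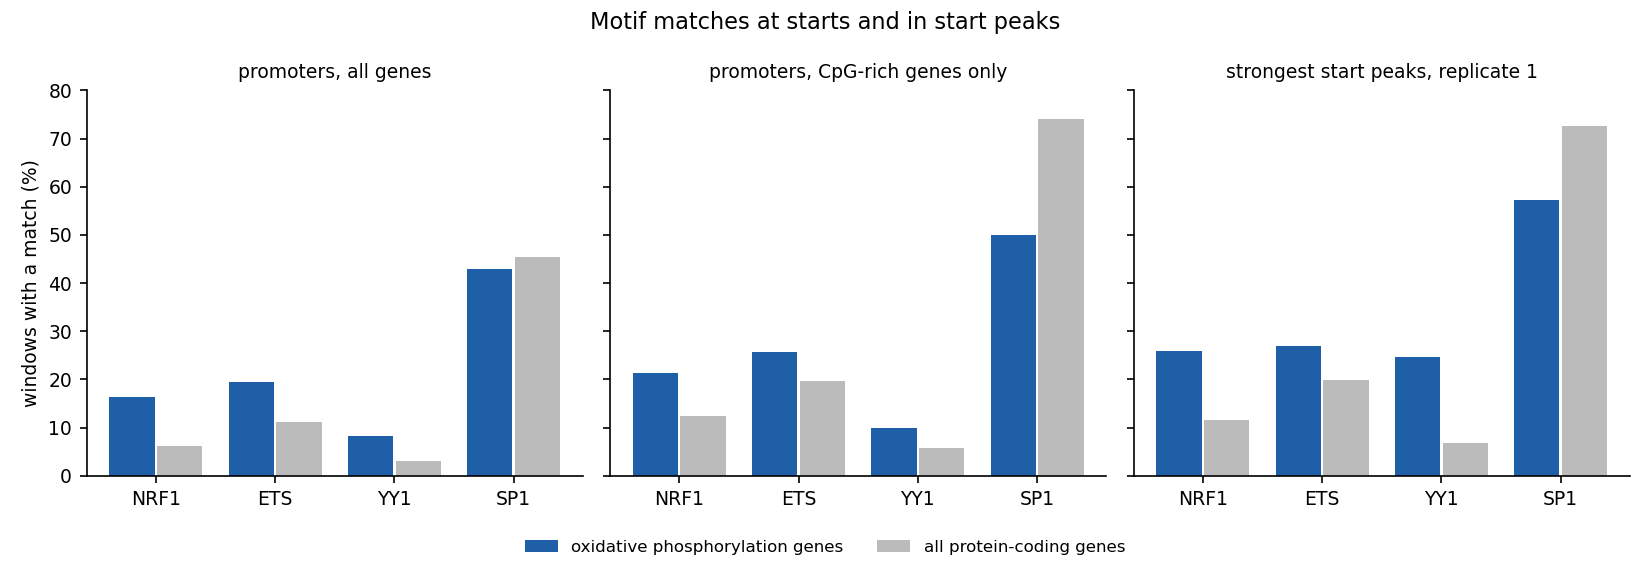
Share of windows (%, bars from 0) holding the NRF1, ETS, YY1 and SP1 letters, with members in blue left of all protein-coding genes in grey, for all promoters, for CpG-rich promoters and for 300 bases round the middle of the strongest start peak in replicate 1. NRF1, ETS and YY1 bars are higher for members in each panel, and SP1 bars are lower.

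The other 7 sets of letters were found in few members or at shares near those of all promoters. The CRE letters TGACGTCA were present in 4 members (4.08%), against 2.47% of all promoters. The E-box CACGTG was present in 8 (8.16%), against 7.71%, and CCAAT, bound by NF-Y, in 35 (35.7%), against 38.5%. The MEF2 letters, CTA and TAG with 4 bases between, were present in 4 (4.08%), against 3.44%, and TATAAA in 11 (11.2%), against 12.7%. The letters TCAAGGTCA, bound by oestrogen-related receptors, were present in 2 (2.04%), namely Sdhd and Atp5g3, against 0.365%. A sequence bound by ZNF143 was present in 2 (2.04%), Ndufv3 and Atp5d, against 0.406%. Cox6a2 was the only tissue-restricted isoform with the MEF2 letters, and the other member matches were in Ndufaf5, Sdhb and Cox5b. As searched, these letters allow any 4 middle bases, so a match need not be a MEF2 site.

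Windows of 300 bases round the peak middle search the open site itself, and they exist only for genes with a start peak. Against these genes, the differences in percentage points were larger for NRF1, YY1 and SP1 letters than in promoters. NRF1 letters were present at 25.8% and 24.4% of member peaks, against 11.5% and 11.7% of all start peaks in replicates 1 and 2. YY1 letters were present at 24.7% and 23.3%, against 6.84% and 6.50%, ETS letters at 27.0% and 24.4%, against 19.9% and 19.6%, and SP1 letters at 57.3% and 58.9%, against 72.7% and 71.4%. Within CpG-rich genes the NRF1 and YY1 differences were also larger in peak windows than in promoters, but the SP1 difference was smaller. There SP1 letters lay at 60.9% and 64.3% of member peaks, against 77.4% and 76.7%, and in promoters at 50% against 74.0%. At least 1 of the NRF1, ETS and YY1 letters lay in 13 of 16 complex V peaks in replicate 1 and 13 of 17 in replicate 2. In complex IV the counts were 5 and 3 of 13. Over all members such letters lay in 59.6% and 57.8% of peaks, and over all genes with a start peak in 33.4% and 33.1%, so the complex IV share was near that of all genes.

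The YY1 letters contain ATG, and most of the member matches fell on the start of translation, as in Ndufa7 and Atp5b above. In each library 15 of 22 member matches in peak windows (68.2%) overlapped an annotated start codon of the gene, against 35.7% and 35.5% of matches over all genes. Besides Ndufa7 and Atp5b these included Ndufs3 of complex I, Sdhb of complex II and Uqcrfs1 and Uqcrc1 of complex III. Matches away from a start codon were present at 7 members (7.87%) in replicate 1 and 6 (6.67%) in replicate 2, against 4.37% and 4.19% of all genes. Coding sequence and a binding site cannot be told apart at such a match from the letters alone.

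Footprints lay over most NRF1 letters, in members as in other genes. All 20 NRF1 matches in member promoters lay within a start peak, against 1367 and 1357 of 1616 matches over all promoters in replicates 1 and 2. A footprint overlapped 16 of the 20 in replicate 1 and 17 in replicate 2 (80% and 85%). Of the matches within a peak over all promoters, 86.1% and 87.8% were overlapped. The matches of Sdha at 15 bases before and 30 after its start and of Cox6a1 were overlapped in both libraries, whereas the third match of Sdha and those of Uqcrc1, Atp5g3 and Atp5k had none in replicate 1. In peak windows, 26 of 31 and 26 of 30 matches were overlapped (83.9% and 86.7%), against 87.6% and 88.5%. These member matches lay more often downstream of the principal start, 62.1% and 60.7% of them, against 30.9% and 30.2% over all genes. For ETS letters the shares were 52.4% and 55% in members, against 45.4% and 48.3% in all, and for YY1 letters 3 of 7 and 3 of 6 matches, against 44.2% and 46.6%. Members with NRF1 letters in the promoter had median percentiles of 86.9 and 84.7, against 74.5 and 77.6 for members without. The contrast was wider over all genes, with medians of 79.7 and 79.7 with and 21.5 and 26.3 without. For ETS letters the medians of members were 76.5 and 79.4 with and 77.2 and 78.5 without, and those of all genes 73.2 and 74.1 with and 14.7 and 18.8 without.

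Other genes of the same pathway, taken from a list that holds no member, were open at their starts to a similar extent. Of 61 genes, 60 had a start peak called in both libraries, with median percentiles of 83.0 and 81.6. The share was 56.3% over all protein-coding genes and 88.4% over those with CpG-rich promoters. The base composition of the listed genes was not compared. The 60 comprised 33 of 33 further assembly factors of the complexes, 13 of 13 genes of the tricarboxylic acid cycle and 12 of 13 regulators. The others were Cycs, the electron carrier cytochrome c, and Cyc1, a cytochrome subunit of complex III. Among the regulators, Esrra, an oestrogen-related receptor, had signals of 7.40 and 7.77 and a percentile of 99.6. Nrf1 had 4.002 and 3.53, Gabpa 2.51 and 1.99, and Yy1 4.82 and 4.96. Ppargc1a, the coactivator PGC-1alpha that is known to raise these genes in muscle and brown fat, was the regulator without a start peak, while its relative Ppargc1b had signals of 2.87 and 2.02.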

How the data were processed

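By the labels and the readme texts, the authors made separate lists of peaks, footprints and per-site FDR for every library from filtered mm10 alignments and a mappability file, without pooling. Their aligner and callers were not given in the sources used here. Peak heights are a signal that the authors deposited, in steps of 0.0113 (replicate 1) and 0.00892 (replicate 2), on a scale not stated. Footprints carry the constant deposited value 0.01, a limit on a p-value or FDR, which of them is not stated. The deposited per-site FDR values, which are adjusted p-values, reach up to 0.05 and were used for Atp5d and genes without a start peak.

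The peak list with fewer rows of each library (38674 and 47661 peaks) was the main one, and that with more rows (63793 and 79598) an alternative. Start peaks were peaks sharing at least 1 base with the window of 500 bases before to 500 after any of 132633 annotated starts of GENCODE M21. Principal starts came from APPRIS tags, and promoter sequence from the GRCm38 patch 6 genome. RefSeq's promoter table held 78 of 97 symbols, and only those were printed.

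Members and lists were chosen with earlier results of these data known. Named are, per complex, the 3 subunits with the highest and the 2 with the lowest mean percentile, the highest and lowest assembly factor, all tissue isoforms and all members with a start peak in 0 or 1 library. Other genes named, such as Ndufaf1, Cox7c and Atp5j, were chosen after their values were seen. Python 3.11.15 with numpy 2.4.6, pandas 2.3.3 and scipy 1.17.1 was used, and the steps were tested on simulated data.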

Additional observations from a re-analysis of the deposited data

How the results depend on the processing

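No paired analysis was possible because the design has 1 group. Of 112 recomputed values, 86 kept within 1.5 times the reported count, or within the spread between libraries or the counting interval, and none turned round. Every count of genes with a start peak did so, with 89 to 90 members when either library was left out. Many of these counts could hardly do otherwise. A count of 89 of 98 members cannot rise to 1.5 times its value, and a wider window or a single library cannot lower it. Medians and means with a library left out are also among the 86, but they could not do otherwise. Each is the value of the remaining library, set against the spread between the same 2 libraries.

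Medians of percentiles moved by more than the narrow spread between the libraries. With the longer peak list the mean of both libraries' medians was 82.7 for all members, 87.6, 81.6, 80.1 and 62.6 for complexes I to IV. With a start window of 250 bases it was 75.2, and 82.3, 73.8 and 68.2 for complexes I to III. With 1000 bases it was 80.4, and 86.7 and 77.2 for complexes I and III. With principal starts only it was 74.3, and 82.2, 73.6, 71.5 and 70.6 for complexes I, II, III and V. Among CpG-rich genes the distance of members from all genes was 10.2 percentage points in share, against 34.6, and 11.3 in median percentile, against 45.4. Footprints wholly within the peak numbered 4.61 per member peak. In peak windows, the NRF1 share was 25.8% in replicate 1, the YY1 share 24.7% and 23.3% and the SP1 share 57.3% and 58.9%. ETS letters wholly within a footprint made up 14.3% in replicate 1. The causes were not tested. Leaving out either library returned the median of the other, 76.9 or 79.3 for all members, and so tested nothing further. Added after the values were seen were autosomal members only (78.4), the longer list for absent members (8) and YY1 letters away from start codons. The unknown read depth limits what the absence of a peak shows.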
